A study of Mus musculus with 4 samples.

Results

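The nuclear-encoded subunits of oxidative phosphorylation were followed through single-nucleus RNA profiles of the mouse hippocampus. The members were the mouse genes whose symbol begins with Ndufa, Ndufb, Ndufs, Ndufv, Uqcr, Cox4, Cox5, Cox6, Cox7, Cox8 or Atp5. Names ending in -ps or os, with or without a number after them, were left out. This gave 92 of the 55403 features in the deposited tables, under 91 symbols, because Atp5o names a pair of overlapping features. Of the 92, 88 are annotated as protein coding and 4 as processed pseudogenes. They comprise 37 complex I genes, 8 complex I assembly factors (Ndufaf), 8 complex III genes, 21 complex IV genes and 18 ATP synthase genes. Ndufa4 and Ndufa4l2 are counted with complex IV, where the encoded proteins reside.

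Hippocampal nuclei were profiled in 4 droplet libraries: 1 from WT mice, 2 from PS19 mice and 1 from TG_PS19 mice. PS19 mice carry a human MAPT transgene under the Prnp promoter, encoding 1N4R tau with the P301S change. TG_PS19 mice carry it together with a SORLA transgene at Rosa26 under a CMV/β-actin element, which is known as broadly active. The lines were crossed and littermates were used; the tissue was frozen and pooled before lysis, and the age of the mice is not given in the sources used here. The labels do not say if each PS19 library had its own pool of mice, so the spread between them may be technical. The contrasts ask which members differ between the PS19 and WT libraries, and which differ between the TG_PS19 and PS19 libraries. The second pair of groups differs in the SORLA transgene and also in sex, as given below.

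The libraries held 20064025 to 48670533 UMIs (unique molecules counted) in 4643 to 12762 barcodes, and 4325 to 10811 nuclei per library fell into the 12 marker-defined cell classes analysed. Median UMIs per nucleus were 2996 and 3708.5 in the PS19 libraries, above 2643 in WT and 2659 in TG_PS19. Of 31947 barcodes, 99 occurred in 2 libraries and 1 in 3. Human MAPT had 0 UMIs in WT (3 counts would be 0.0737 CPM, counts per library scaled to a common total) and 17.5, 18.6 and 12.9 CPM in the PS19 and TG_PS19 libraries. SORL1, the human form of the SORLA gene, reached 65.7 CPM in TG_PS19 and at most 0.373 elsewhere. In the TG_PS19 library 4473 nuclei had Xist and no Y-linked UMI and 2194 the reverse, against 28 and 7847 in WT, 5 and 3224 in PS19 replicate 1 and 6 and 3596 in replicate 2. The TG_PS19 library thus held nuclei of both sexes, while nuclei with either mark in the other libraries were nearly all Y-linked. Sex and the SORLA transgene therefore cannot be told apart in the contrast of TG_PS19 with PS19 over all nuclei. Values restricted to the Y-linked nuclei of TG_PS19 are given where they change a call. In each of the 12 classes all markers of its list were detected.

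Oxidative phosphorylation moves electrons from NADH and succinate through complexes I to IV to oxygen. The proton gradient built on the way drives ATP synthase, also called complex V. Most subunits are encoded in the nucleus, translated in the cytosol and imported, while a small core is encoded by mitochondrial DNA. In the hippocampus, neurons depend on this route for firing and synaptic work, astrocytes combine it with strong glycolysis, and several complex IV subunits exist as tissue-restricted isoforms. Nuclei hold newly made and retained nuclear RNA, so the values below are levels in the nucleus and not amounts of protein.

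Promoters are shown first, because many members hold motifs that the choice by name did not use. RefSeq promoters (GRCm38.p6, 250 bases before to 50 after the start) matched 71 of the 91 member symbols. The NRF1 motif (GCGC, then any 2 bases, then GCGC, read on both strands with overlaps allowed) was found in 19 of the 71 (26.8%) and in 7.0% of all 27025 genes with a promoter. The GABPA motif CCGGAAG was found in 17 (23.9%, against 9.93%), and the YY1 motif AANATGGCG in 10 (14.1%, against 2.76%). At least 1 of the 3 was present in 40 of the 71 (56.3%, against 17.3%). NRF1, GABPA and YY1 are transcription factors known for regulating respiratory chain genes. A match describes these letters and is not evidence of binding. The 4 sequences below show an NRF1 cluster in Atp5o, mixed motifs in Cox6a1, a YY1 match in Atp5b and no match in Cox6b2, a complex IV isoform whose level differed between libraries. Capitals mark motif matches.
Atp5o, chr16:91931581-91931880, minus strand: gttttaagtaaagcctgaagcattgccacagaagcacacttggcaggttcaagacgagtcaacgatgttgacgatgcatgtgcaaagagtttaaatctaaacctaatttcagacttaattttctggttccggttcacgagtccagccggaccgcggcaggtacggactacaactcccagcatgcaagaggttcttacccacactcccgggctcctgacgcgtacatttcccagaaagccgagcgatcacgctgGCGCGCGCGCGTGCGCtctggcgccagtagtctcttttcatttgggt
Cox6a1, chr5:115348909-115349208, minus strand: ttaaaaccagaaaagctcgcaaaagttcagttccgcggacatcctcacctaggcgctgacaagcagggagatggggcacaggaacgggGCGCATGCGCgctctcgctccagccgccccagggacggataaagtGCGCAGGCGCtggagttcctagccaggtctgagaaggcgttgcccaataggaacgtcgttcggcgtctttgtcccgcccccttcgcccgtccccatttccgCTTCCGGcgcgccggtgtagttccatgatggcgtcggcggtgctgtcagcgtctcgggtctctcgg
Atp5b, chr10:128083057-128083356, plus strand: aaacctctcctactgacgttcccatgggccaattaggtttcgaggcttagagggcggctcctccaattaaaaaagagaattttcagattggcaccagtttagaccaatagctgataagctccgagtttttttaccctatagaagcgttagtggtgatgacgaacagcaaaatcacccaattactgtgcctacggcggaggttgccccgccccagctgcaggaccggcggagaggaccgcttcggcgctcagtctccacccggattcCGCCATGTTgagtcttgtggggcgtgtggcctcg
Cox6b2, chr7:4753045-4753344, minus strand: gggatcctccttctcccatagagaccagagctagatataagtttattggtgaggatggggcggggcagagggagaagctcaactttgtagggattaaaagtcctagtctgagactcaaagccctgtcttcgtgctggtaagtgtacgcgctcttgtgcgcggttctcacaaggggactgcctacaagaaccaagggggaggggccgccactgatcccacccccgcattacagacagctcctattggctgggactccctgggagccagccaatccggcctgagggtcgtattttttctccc
The NRF1 matches of Atp5o overlap in a single GC run just after the start, and the YY1 match of Atp5b also lies after it. In Cox6a1 the separate NRF1 matches lie further before the start than the GABPA match.

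The members took 0.231% of all UMIs in the 12 classes, 260244 in total. Complex I genes held 33.0% of them, ATP synthase genes 30.4%, complex IV genes 18.1%, complex I assembly factors 11.3% and complex III genes 7.20%. Within each complex the largest count belonged to Ndufs4 (11837 UMIs, an accessory subunit of complex I), Uqcrc2 (4541, a core protein of complex III), Cox7c (8867, a small complex IV subunit) and the wide Atp5o feature (28351, named for the stalk subunit of ATP synthase). The order by length differed. Per kilobase of gene span Cox7c had 4245 UMIs, Cox8a 2870, Cox6a1 1166, Ndufaf4 1133 and Uqcrq 935, while Ndufs4, which spans 100464 bp, had 118 and the wide Atp5o 117. Across the 84 members with at least 100 UMIs, span and UMIs correlated with Pearson's r = 0.46 on a log scale and Spearman's rho = 0.44, as a description over genes that share libraries. Whether intronic reads were counted is not given in the sources used here. The other 8 members had under 100 UMIs each and were tested in no class: Cox7a1, Cox6a2, Cox8b, Cox8c and the pseudogenes Ndufb4c, Ndufs6b, Cox6c2 and Ndufa11b. Of the rest, 24 passed the count filter in all 12 classes and 60 in 1 to 11 classes.

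Most members had no class far above the median class. For 72 of the 84 the highest class stood less than 2 times above the median class, and for only 4 at least 5 times above: Ndufa4l2, Cox4i2, Cox7b2 and Cox6b2, all isoforms of complex IV subunits. Mural cells (pericytes and smooth muscle of vessels) had the highest level for 29 of the 84, endothelial cells for 16 and astrocytes for 9. Only 45 members passed the count filter in mural cells and 46 in endothelial cells, against 82 in astrocytes. For low members the highest class can thus rest on few UMIs.

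The wide Atp5o feature was an exception in kind. It is annotated on the minus strand at chr16:91684398-91926982 (GRCm38), 242585 bp that reach far past the compact Atp5o gene at chr16:91925214-91931687, and 90.9% of its span lies under features of the opposite strand. Chief among these are Itsn1 (chr16:91729281-91920597, intersectin, an endocytic scaffold) and the antisense transcript Gm10785 (chr16:91688898-91715642). The compact Atp5o had 1186 UMIs against 28351 for the wide feature. Over the 12 class means the wide feature correlated with Itsn1 at r = 0.98 (rho = 0.94), with the compact Atp5o at 0.53 (0.49) and with the sum of the other members at 0.14 (0.17). These are descriptions over 12 points that share libraries. Whether the counting used strand is not given in the sources used here. The wide feature and Itsn1 have separate counts, and how reads of their shared span were assigned was not tested. The wide feature was highest in astrocytes, with 484 CPM in WT, 403 and 497 in PS19 and 741 in TG_PS19. Levels here and below are scaled by edgeR's TMM method unless stated. The wide feature was lowest in microglia, with 30.9, 50.6, 61.2 and 52.1 in the same order. Because it held 10.9% of all member UMIs, the class levels below leave it out.

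Summed over the other 91 members, mural cells stood highest and oligodendrocyte precursors lowest. Levels in mural cells were 3207 CPM in WT, 2972 and 2824 in PS19 and 3014 in TG_PS19, a mean of 3004 ± 158 (SD over the 4 libraries). Astrocytes followed with 2599, 2636, 2416 and 2560. In oligodendrocyte precursors the levels were 1801, 1780, 1775 and 1719, a mean of 1769 ± 35 (SD, n = 4). The range between classes was thus 1.70-fold, and every library placed mural cells above all of the others. Fibroblasts (2448 ± 88.4), endothelial cells (2321 ± 127), microglia (2267 ± 134) and inhibitory neurons (2246 ± 151) formed the next group. Neighbours in that group overlapped between libraries: endothelial cells exceeded microglia in 2 of 4 libraries. Cajal-Retzius neurons (2084 ± 109) lay between them and the oligodendrocytes (1974 ± 58.0). Other excitatory neurons (1929 ± 106), dentate granule neurons (1850 ± 102) and CA1 pyramidal neurons (1841 ± 61.6) were near the bottom, and granule neurons exceeded CA1 neurons in 2 of 4 libraries. These are shares of a nucleus's RNA. RNA per nucleus differed far more: a median of 24 to 35.5 member UMIs was found in a CA1 nucleus and 4 to 6 in an oligodendrocyte nucleus. Complex IV varied most between classes, from 320 CPM in CA1 neurons to 871 in mural cells (2.72-fold). The mural sum held 174 CPM of Ndufa4l2 and 86.2 of Cox4i2, whose median class levels were 0.38 and 0.54. Complex I varied from 686 in oligodendrocyte precursors to 1018 in mural cells (1.48-fold).

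**Figure D1:**
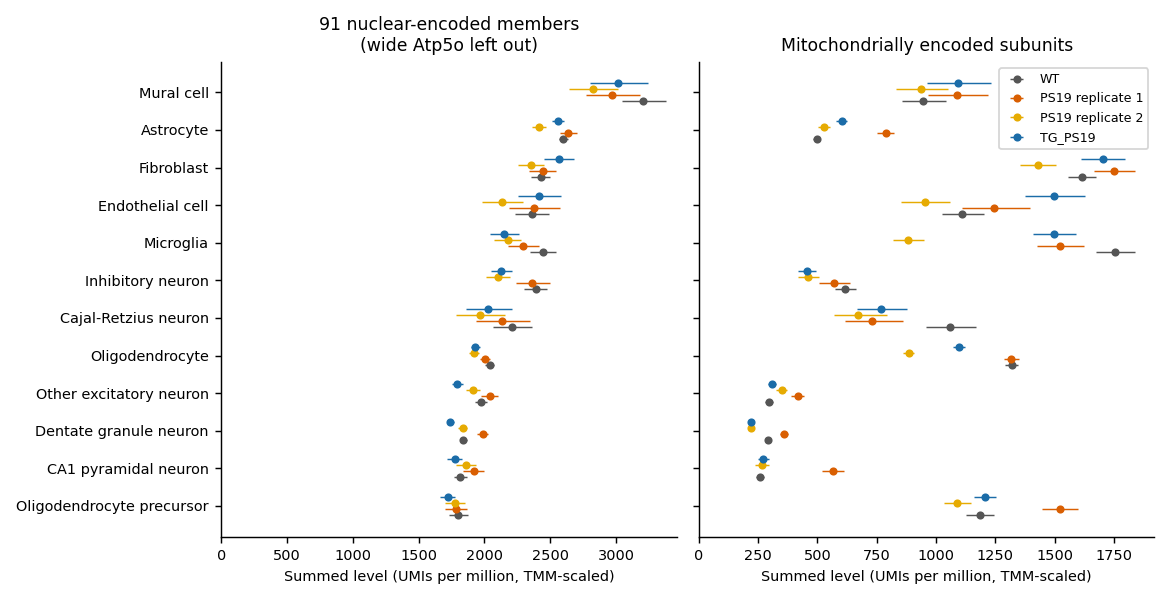
Summed normalised level (CPM, x axis) of the 91 members without the wide Atp5o (left) and of the mitochondrially encoded subunits (right) in each of 12 cell classes (y axis), 1 point per library with its 95% Poisson interval (counting error only). The nuclear-encoded sum runs from 1769 to 3004 between class means and the PS19 libraries lie close together, while the mitochondrially encoded sum runs from 273 to 1624 and the PS19 libraries differ widely.

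The mitochondrially encoded partners behaved differently. Their sum ran from 273 CPM in granule neurons to 1624 in fibroblasts, 5.95-fold, and the 2 PS19 libraries differed by up to 1.09 on the log2 scale (564 and 265 CPM in CA1 neurons). For the nuclear-encoded sum the largest gap within the PS19 pair was 0.17. These transcripts are made inside mitochondria, outside the nucleus. The class means of both sums correlated at r = 0.41 (rho = 0.38) over 12 classes, as a description.

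Isoform choice separated the cell classes more sharply than any sum. Cox4i2 and Ndufa4l2 are paralogues of Cox4i1 and Ndufa4 that are known for induction under low oxygen. In mural cells Cox4i2 made up 68.9% of the Cox4i1 and Cox4i2 UMIs (113 UMIs against 51 of Cox4i1, exact 95% interval 61.2 to 75.9%), and in the single libraries 69.2% in WT, 72.7 and 73.8% in PS19 and 60.0% in TG_PS19. No other class passed 4.67% over all libraries. Ndufa4l2 took 92.8% of its pair in mural cells (218 UMIs against 17, 88.7 to 95.7%), with 91.2% in WT, 93.9 and 96.0% in PS19 and 91.1% in TG_PS19. Fibroblasts had 15.5% and the other classes at most 6.90%. The mural level of Cox4i2 was 102, 58.9, 98.0 and 86.1 CPM in WT, PS19 replicates 1 and 2 and TG_PS19, and that of Ndufa4l2 was 165, 169, 152 and 209. Neither passed the test in either comparison, the smallest adjusted p being 0.85 (edgeR quasi-likelihood test, 1 residual degree of freedom), and the libraries overlapped. Of all UMIs in the 12 classes, 62.1% for Cox4i2 and 79.0% for Ndufa4l2 lay in mural nuclei. A smaller mural cluster of 34 nuclei had 0 UMIs of both genes in 95046 UMIs. That allows a level of up to 31.6 CPM (not TMM-scaled), below the larger cluster in all 4 libraries.

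Cox6b2 and Cox7b2, the other restricted isoforms, marked glia and neurons in different ways. Cox6b2, an isoform of Cox6b1 best known from testis, made up 55.6% of its pair in fibroblasts (48.5 to 62.5%), 47.9% in astrocytes (44.3 to 51.5%) and 38.6% in oligodendrocytes (35 to 42.3%). In granule neurons it made up 0.94% (4 UMIs against 422, 0.26 to 2.39%), although these nuclei were deeper, with median UMIs of 6516 to 10182 against 2877.5 to 4508 in astrocytes. The order between glia and granule neurons held in each library: 42.7 to 60.2% in astrocytes against 0 to 1.20% in granule neurons. Cox7b2 made up 30.3% of its pair in astrocytes (27.8 to 32.9%), 20.9% in granule neurons (18.7 to 23.3%) and 18.7% in inhibitory neurons, but 1.04% in oligodendrocytes (8 UMIs against 761) and 0 of 120 UMIs in microglia, which allows up to 2.50%. In granule neurons the Cox7b2 share was 24.5% in WT, 11.7 and 17.0% in PS19 and 25.9% in TG_PS19. This spread was wider than the interval, which covers counting error only. In each library the Cox7b2 share was higher in astrocytes than in granule neurons. The shares are of UMIs, not scaled by gene span, which is 105382 bp for Cox7b2 and 6751 bp for Cox7b. The part of span in the shares was not tested. Cox6b2 was thus found in both astrocytes and oligodendrocytes, and Cox7b2 in astrocytes and neurons, but not in these alone. Cox6b2 also made up 35.7% in mural cells, 25.4% in oligodendrocyte precursors, 22.7% in Cajal-Retzius neurons (5 UMIs against 17) and 17.0% in microglia. Cox7b2 made up 12.4% in oligodendrocyte precursors, 12.2% in other excitatory neurons and 4.35% in Cajal-Retzius neurons (2 UMIs against 44). The muscle and fat isoforms were scarce: Cox6a2 stayed at or below 3.64% of its pair, Cox7a1 at or below 9.38% (3 UMIs against 29 in Cajal-Retzius neurons) and Cox8b at or below 0.43%. Genes of the astrocyte marker list summed to 4842 to 6518 CPM in the fibroblast class, against 2846 to 3447 for its own list. The astrocyte gene Slc1a2 was at 53.8 to 202 there against 6637 to 9100 in astrocytes.

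**Figure D2:**
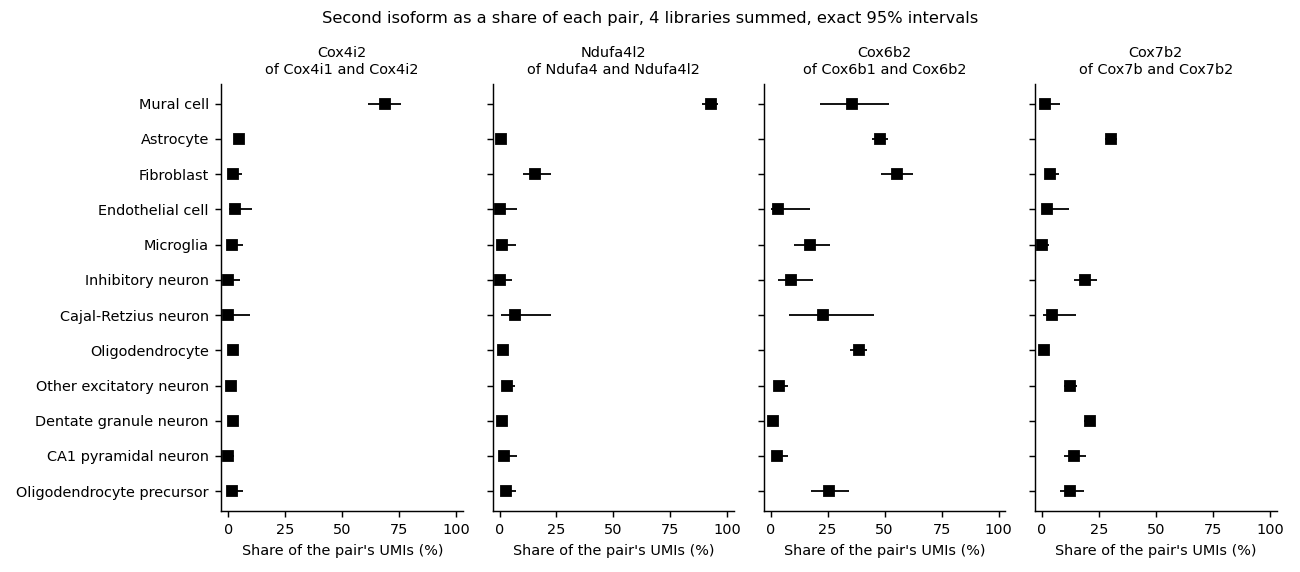
Share of the second isoform in the UMIs of 4 complex IV isoform pairs (x axis, percent) in each of 12 cell classes (y axis), with the 4 libraries summed and the exact 95% interval (counting error only). Cox4i2 and Ndufa4l2 exceed 60% in mural cells alone, while Cox6b2 is above 35% in fibroblasts, astrocytes, oligodendrocytes and mural cells and Cox7b2 is highest in astrocytes at 30.3%.

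Between PS19 and WT few members passed the test. Of 820 member and class pairs tested, 1 passed an adjusted p of 0.05 (edgeR), against 2.78% of all gene and class pairs. The 1 was higher in PS19 (1.33% of all pairs) and 0 were lower (1.46%). At an unadjusted p of 0.05 there were 42 (23 higher and 19 lower in PS19), 5.12% against 10.7% for all pairs. DESeq2 called 0 of the 820, against 0.235% of all pairs and 0.305% of the pairs to which it gave an adjusted p. The median log2 fold change of the 820 pairs was -0.035, and that of all pairs 0.0074. The median standard error of a member's fold change was 0.20 in granule neurons and 0.59 in Cajal-Retzius neurons, so small changes in the rare classes were not detectable at this depth.

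The exception was Cox6b2 in astrocytes. Its level was 16.5 CPM in WT, 27.5 and 29.0 in PS19 and 14.7 in TG_PS19. The PS19 libraries lay above both single libraries, and the contrast with WT was 0.77 ± 0.22 on the log2 scale (SE, adjusted p = 0.0128, edgeR, where 5.53% of all astrocyte genes were called). In TG_PS19 it fell against PS19 by 0.94 ± 0.25 (adjusted p = 0.00302). DESeq2 called neither (adjusted p = 1.00 and 0.70). With every nucleus thinned to 1000 UMIs the contrasts were 0.08 and -0.38 and neither was called, and with the Y-linked nuclei of TG_PS19 alone the second was -0.66 (adjusted p = 0.217). An astrocyte cluster with high Gfap, the intermediate filament raised in reactive astrocytes, moved with this result. It made up 8.46% of astrocyte nuclei in WT, 28.2 and 24.5% in PS19 and 5.88% in TG_PS19. Cox6b2 was at 31.1, 47.8, 64.0 and 11.5 CPM there, the last from 3 UMIs. Levels in this and the other astrocyte clusters are not TMM-scaled. In the high-Gfap cluster the 95% interval of WT (18.4 to 49.2) overlapped those of both PS19 libraries (32.9 to 67.2 and 47.9 to 83.7). The interval of TG_PS19 (2.37 to 33.6) overlapped that of PS19 replicate 1 but not that of replicate 2. In the largest astrocyte cluster the values were 15.2, 22.0, 19.3 and 13.8, in the same direction and also with overlapping 95% intervals. In the remaining astrocyte cluster they were 18.6, 17.7, 13.4 and 11.6, with WT above both PS19 libraries and overlapping intervals. The part of cluster shares in the result was not tested.

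Against PS19, TG_PS19 showed 8 called pairs of 820, 5 higher and 3 lower (edgeR), where 4.86% of all pairs were called, 3.17% higher and 1.69% lower. At an unadjusted p of 0.05 there were 53 (20 higher, 33 lower), 6.46% against 14.2%. DESeq2 called 2 of the 820, both higher, against 0.502% of all pairs in either direction. Of the pairs to which DESeq2 gave an adjusted p, 0.854% were called in either direction and 0.595% higher. Among all genes edgeR called 9.33% in granule neurons, 2.3% in CA1 neurons, 3.65% in other excitatory neurons, 8.81% in oligodendrocytes and 9.07% in astrocytes, the classes with called members. The median log2 fold change was -0.036 over the members and -0.011 over all pairs. In granule neurons 26 members were above 0 and 55 below (median -0.10), in CA1 neurons 26 and 53 (-0.11) and in other excitatory neurons 23 and 58 (-0.15). In oligodendrocytes 46 were above and 35 below (0.043), and in astrocytes 47 and 35 (0.040). With library totals in place of TMM scaling 16 member pairs were called, 4 higher and 12 lower, where 4.96% of all pairs were called. The direction of the split thus depends on the scaling.

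All 5 higher pairs were the wide Atp5o feature. In granule neurons its level was 272 in WT, 242 and 261 in PS19 and 396 CPM in TG_PS19, which lay above the other 3. The contrast was 0.65 ± 0.10 on the log2 scale (SE, adjusted p = 5.35e-09, edgeR). In astrocytes it was 0.72 ± 0.14 (adjusted p = 1.15e-05), in oligodendrocytes 0.52 ± 0.13 (0.00237), in other excitatory neurons 0.56 ± 0.13 (0.00547) and in CA1 neurons 0.65 ± 0.18 (0.0221). DESeq2 kept the calls in granule neurons and astrocytes. The CA1 call was lost with library totals (adjusted p = 0.101), at the finer clustering (0.135) and with Y-linked nuclei alone (0.236). With thinned nuclei the calls in granule neurons (adjusted p = 0.0359) and astrocytes (0.00292) remained, and those in oligodendrocytes (0.0609), other excitatory neurons (0.787) and CA1 neurons (0.989) were lost. The compact Atp5o was not called in any class, with fold changes of 0.09 in granule neurons and 0.06 in astrocytes. Nor was Itsn1 called: it was at 214 CPM in granule neurons of WT, 205 and 202 in PS19 and 207 in TG_PS19. Summed over classes, the ratio of wide Atp5o to Itsn1 UMIs was 1.31 in WT, 1.21 and 1.33 in PS19 and 1.90 in TG_PS19, and within each of the 12 classes it was highest in TG_PS19.

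Other features of the locus were also called. Gm10785 rose in TG_PS19 in granule neurons (0.66 ± 0.11), other excitatory neurons (0.81 ± 0.15), oligodendrocytes (0.51 ± 0.13) and astrocytes (0.68 ± 0.15; adjusted p from 1.59e-07 to 0.00382, edgeR). Donson, on the same strand as Atp5o, rose in oligodendrocytes by 0.76 (adjusted p = 0.0476, edgeR). Cryzl1, on that strand within the wide feature, was called in no class where it was tested, with -0.37 in granule neurons and -0.47 in oligodendrocytes. Over the whole table, features annotated as antisense had a median log2 fold change of 0.44 in TG_PS19 against PS19, and 15.9% of 8190 pairs were called higher, against 2.0% of protein-coding pairs with a median of -0.04. Against WT, PS19 showed an antisense median of -0.06. The antisense class was examined after the Atp5o values had been seen, and its part in the rise of the wide feature was not tested.

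**Figure D3:**
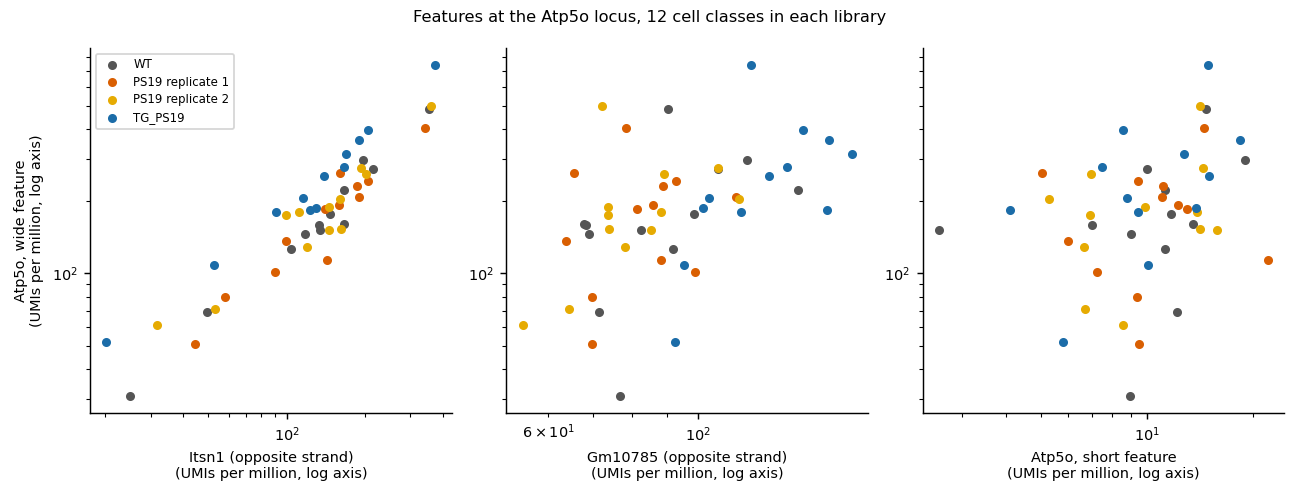
Normalised level of the wide Atp5o feature (y axis, CPM, log axis) against Itsn1, Gm10785 and the compact Atp5o (x axes, log), 1 point per cell class and library. With Itsn1 the points lie along a line and TG_PS19 has the highest ratio in each of the 12 classes, while the relation with the compact Atp5o is loose (r = 0.53 over class means).

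The 3 lower pairs were Cox6b2 in astrocytes, given above, Cox7b in granule neurons and Ndufaf6 in oligodendrocytes. Cox7b, an X-linked complex IV subunit at chrX:106015700-106022450, was at 28.6 CPM in WT, 39.2 and 39.6 in PS19 and 27.2 in TG_PS19. It fell in TG_PS19 by 0.54 ± 0.16 on the log2 scale (adjusted p = 0.0118, edgeR), and WT and TG_PS19 lay together below the PS19 pair. The contrast of PS19 with WT was 0.47 and did not pass (adjusted p = 0.0545, edgeR). With Y-linked nuclei alone Cox7b was at -0.91 (adjusted p = 0.00553), and with thinned nuclei at -0.25 and not called. Ndufaf6, an assembly factor of complex I, was at 10.2, 12.7, 11.7 and 6.52 in oligodendrocytes of WT, PS19 replicates 1 and 2 and TG_PS19, a change of -0.90 ± 0.29 (adjusted p = 0.0307). With Y-linked nuclei alone its adjusted p was 0.0509, and with thinned nuclei 0.263. With Y-linked nuclei alone 5 of the 8 calls remained and 3 others were gained, all lower: Ndufaf7 in granule neurons (-0.57, adjusted p = 0.0234), and Ndufa3 (-0.99, 0.0386) and Atp5l (-0.77, 0.0468) in oligodendrocytes. Of all pairs, 3.25% were called under that setting. DESeq2 called none of Cox6b2, Cox7b and Ndufaf6.

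**Figure D4:**
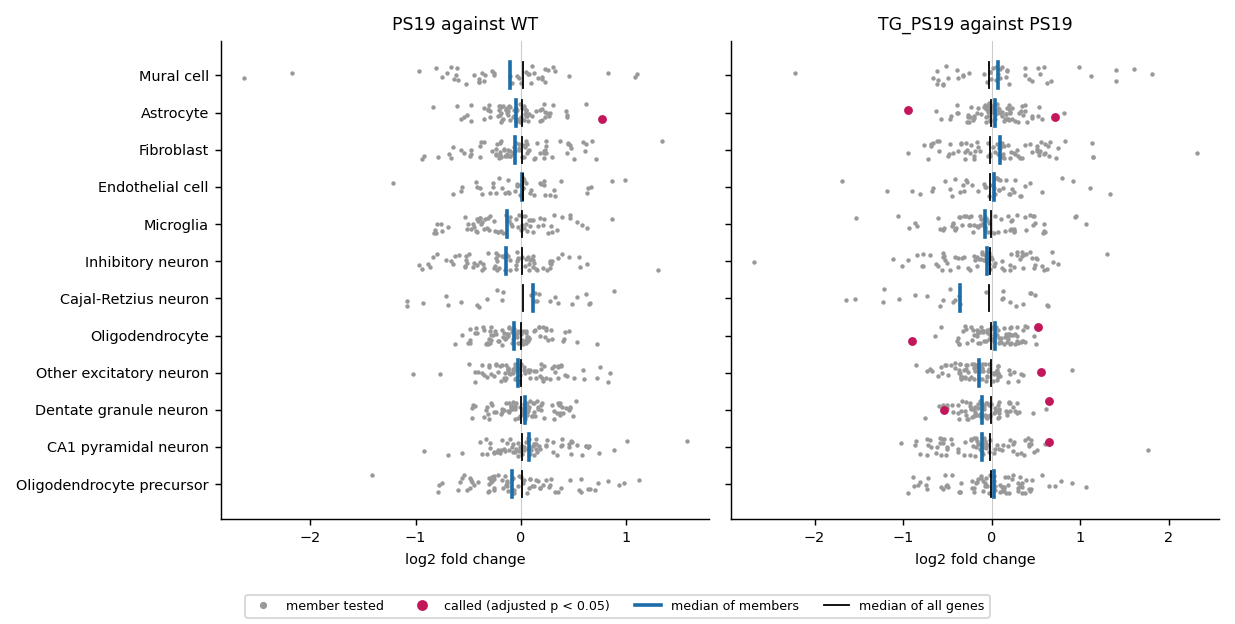
Log2 fold change (x axis) of every member tested in each of 12 cell classes (y axis) for PS19 against WT (left) and TG_PS19 against PS19 (right). Grey points are members, large points are called members, thick lines are member medians and thin lines are medians of all genes; 1 and 8 pairs are called, and member medians stay within 0.15 of 0 outside Cajal-Retzius neurons.

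Summed complexes showed small differences, set here against the gap within the PS19 pair; no test of a sum was run. Over all members without the wide Atp5o, the difference of PS19 from WT had a median over classes of -0.049 (range -0.15 to 0.057) on the log2 scale and that of TG_PS19 from PS19 a median of -0.035 (-0.14 to 0.10). The PS19 pair itself differed by a median of 0.086. Both contrasts use the same PS19 libraries. Complex I is the entry point for NADH electrons. Its sum was lower in TG_PS19 than in both PS19 libraries in 7 of 12 classes and higher than both in 0 of 12. The median was -0.081 (-0.065 without PS19 replicate 1, -0.14 without replicate 2). With library totals it was -0.17, where the median of all genes also lay below 0, from -0.050 in fibroblasts to -0.195 in astrocytes. In granule neurons the complex I level was 669 in WT, 758 and 717 in PS19 and 658 CPM in TG_PS19. In CA1 neurons it was 667, 714, 731 and 647, and in other excitatory neurons 695, 725, 723 and 660. Thus in each of these excitatory classes TG_PS19 lay lowest and WT lay below both PS19 libraries. None of 335 complex I pairs passed edgeR's adjusted threshold in TG_PS19 against PS19. At an unadjusted p of 0.05 there were 3 higher and 19 lower, 6.57% against 14.2% of all pairs, and DESeq2 called 0. PS19 nuclei were the deepest; with nuclei thinned to 1000 UMIs the complex I median was -0.080 and TG_PS19 was below both PS19 libraries in 6 classes. With Y-linked nuclei alone these were -0.16 and 11.

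Complex IV, which hands electrons to oxygen, was higher in WT than in both PS19 libraries in 10 of 12 classes and lower than both in 0, with a median of -0.12 for PS19 against WT. In oligodendrocyte precursors the sum was 376 in WT, 316 and 311 in PS19 and 341 in TG_PS19, and in endothelial cells 485, 417, 426 and 501. Several classes differed by little: 580 in WT against 578 and 506 in PS19 for astrocytes. Without PS19 replicate 2 the median was -0.017, without replicate 1 it was -0.19, and under other settings WT was above both in 7 to 10 classes. Among 142 complex IV pairs, 2 were higher and 8 lower in PS19 at an unadjusted p of 0.05 (7.04%, against 10.7% of all pairs), and Cox6b2 in astrocytes, which moved the opposite way, was the 1 called pair. Complex III was lower in PS19 in Cajal-Retzius neurons (193 in WT, 106 and 148 in PS19), a class of 64 to 169 nuclei per library. Over classes, PS19 differed from WT by a median of -0.036 for complex III and -0.066 for ATP synthase, with WT above both PS19 libraries in 5 and 6 classes and below both in 1 and 0. For TG_PS19 against PS19 the medians were 0.051 and 0.00335, and with library totals they turned to -0.035 and -0.10. Under that scaling the median of all genes ran from -0.050 (fibroblasts) to -0.195 (astrocytes).

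**Figure D5:**
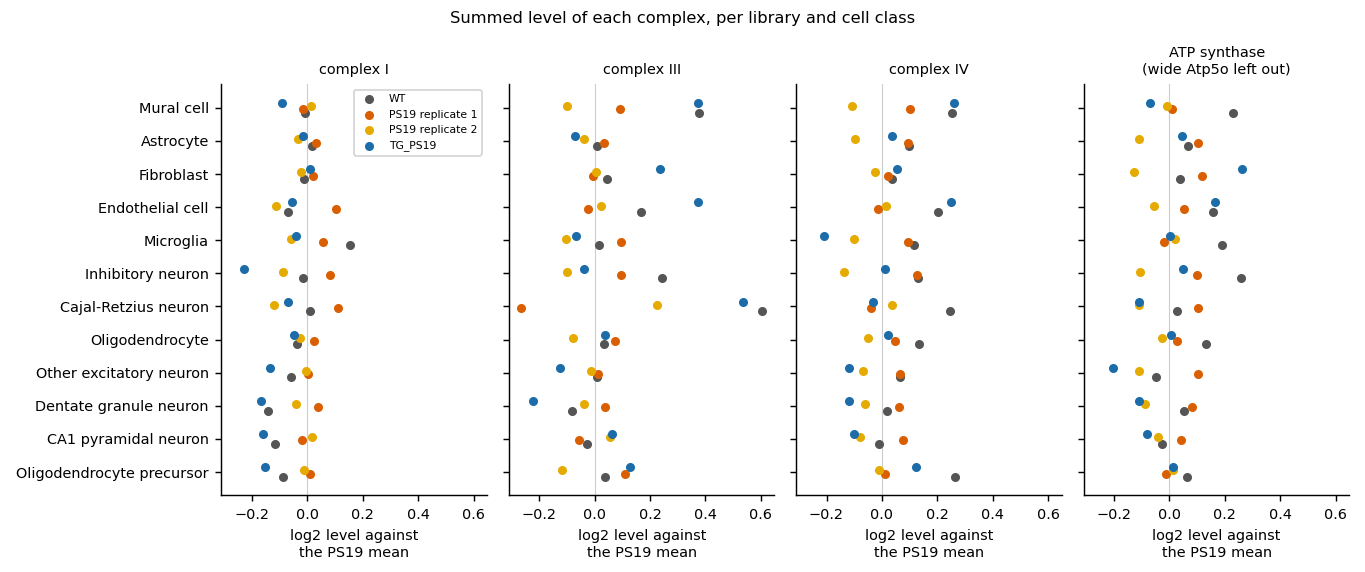
Summed level of complexes I, III, IV and of ATP synthase (wide Atp5o left out) in each library, as the log2 difference (x axis) from the mean of both PS19 libraries, in 12 cell classes (y axis). TG_PS19 lies below both PS19 points for complex I in 7 classes, and WT lies above both for complex IV in 10 classes.

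Microglia changed their makeup between libraries, so their values mix clusters. One microglial cluster held 93.8% of microglia in WT and 94.1% in TG_PS19 but 18.2 and 18.4% in PS19, and another held the rest. The sum over members without the wide Atp5o was 2445 in WT, 2297 and 2176 in PS19 and 2152 CPM in TG_PS19. WT and TG_PS19, which share a main cluster, were the highest and the lowest of the 4. Within the first cluster the sum (not TMM-scaled) was 2466, 2450, 2555 and 2030, and within the other 2719, 2308, 2137 and 2513. The part of the clusters in the microglial values was not tested. No member was called in microglia in either comparison (edgeR; 2 and 3 of 71 at an unadjusted p of 0.05), where 8.24% and 8.97% of all microglial genes were called.

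Apart from the wide Atp5o, the members with the most UMIs of each complex had no call. Ndufs4 in granule neurons was at 102 CPM in WT, 126 and 114 in PS19 and 106 in TG_PS19, and was not called in any class. Cox7c in astrocytes was at 109, 106, 86.3 and 115 and Uqcrc2 in granule neurons at 43.4, 44.8, 45.8 and 39.7, also without a call in any class. The X-linked members Ndufa1 and Ndufb11, both complex I subunits, were low. Ndufa1 was at 5.07, 8.56, 5.97 and 4.23 in granule neurons and Ndufb11 at 23.7, 21.4, 16.3 and 16.2 in astrocytes, in the order WT, PS19 replicates 1 and 2 and TG_PS19. Neither was called in the classes where it was tested.

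Neighbouring pathways gave the following counts of called pairs (edgeR), first higher and then lower. Over all pairs the shares were 1.33% higher and 1.46% lower in PS19 against WT, and 3.17% and 1.69% in TG_PS19 against PS19. The mitochondrially encoded subunits had 5 and 4 of 114 in PS19 against WT and 3 and 4 in TG_PS19 against PS19. mt-Nd3, a complex I subunit, was at 1.39 CPM in WT astrocytes, 7.67 and 4.32 in PS19 and 5.40 in TG_PS19, and at 1.22 in granule neurons of WT, 4.96 and 4.31 in PS19 and 0.897 in TG_PS19, and mt-Nd5 in microglia at 31.9, 33.2, 13.5 and 66.5, where the PS19 libraries lay apart. Other respiratory chain genes (Ndufc, complex II, cytochrome c, Cyc1 and electron transfer flavoprotein genes) had 0 and 0 of 106, with 0 and 6 at an unadjusted p of 0.05 and 0 by DESeq2, and then 0 and 1: Cyc1, cytochrome c1 of complex III, was at 25.4, 28.1, 22.6 and 12.9 in other excitatory neurons, a change of -0.96 ± 0.28. Assembly factors of complexes III and IV had 0 and 0 of 131 (2 and 1 unadjusted, 0 by DESeq2) and then 0 and 5. The largest changes were in Cox19, a copper-handling factor of complex IV assembly, which fell in TG_PS19 in granule neurons (32.6, 43.0, 42.0 and 24.9, a change of -0.77 ± 0.16, adjusted p = 5.45e-05, edgeR) and in other excitatory neurons (-0.89 ± 0.23).

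Regulators of mitochondrial biogenesis had 0 and 1 of 115 and then 2 and 0, all in Esrrg, a nuclear receptor that drives metabolic genes. In astrocytes Esrrg was at 39.3 in WT, 33.1 and 21 in PS19 and 42.8 in TG_PS19 (-0.57 ± 0.19 for PS19 against WT, adjusted p = 0.0471, and 0.69 ± 0.20 for TG_PS19 against PS19, 0.00825, edgeR), and in granule neurons the second contrast was 0.35 ± 0.11. Tricarboxylic acid cycle genes had 0 and 0 of 161 (2 and 5 unadjusted, 0 by DESeq2) and then 0 and 2. These were Cs, citrate synthase, in microglia (50.8, 55.4, 64.9 and 27.5) and Dlat, of the pyruvate dehydrogenase complex, in granule neurons (56.0, 60.4, 73.0 and 51.2). Glycolysis had 3 and 2 of 170 and then 0 and 4. Hk2, an inducible hexokinase, had the clearest pattern: 3.79 in WT astrocytes, 18.6 and 21.9 in PS19 and 6.92 in TG_PS19, changes of 2.42 ± 0.32 and -1.55 ± 0.32, with no overlap between PS19 and the single libraries. Aldoc fell in PS19 oligodendrocytes (11.2, 3.54, 2.34 and 6.35, a change of -1.95 ± 0.35). The astrocyte marker list in the same class was at 612, 285, 250 and 487, with 0 of its 7 markers at 0, and its part in the result was not tested. Tpi1 fell in TG_PS19 microglia (15.9, 38.0, 31.8 and 10.1, a change of -1.76 ± 0.55). Ribosomal protein genes, a class of short, widely expressed genes, had 7 and 16 of 878 and then 5 and 10. Among them Rps3a3 had 0 UMIs in granule neurons of WT and was at 10.1 and 9.46 in PS19 and 3.33 in TG_PS19, and Rpl28 rose in TG_PS19 endothelial cells by 1.68 ± 0.42 (57.8, 32.7, 36.9 and 113).

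Outside the members, the genes whose level over the 48 class and library sums most resembled the summed members were Fam20a (r = 0.82), Egfr (0.82), Pdgfrb (0.80), Etfa (0.80) and Osbpl9 (0.80). The sums share libraries and depth, so these are descriptions.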

How the data were processed

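The 4 gene-by-barcode tables hold raw UMI counts, 1 table per library, as the authors deposited them. Per the submitters' processing notes they were made with Cell Ranger 7.1.0 on GRCm38; strand and intron settings are not given in the sources used here. No value column of another sample was present (0 columns).

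Nuclei with at least 500 UMIs, 300 genes and at most 5% mitochondrial UMIs were kept. Likely doublets were removed by similarity to simulated pairs (0.8% per 1000 nuclei). Clustering used 2000 variable genes without the members, mitochondrial, sex-linked and transgene features, 30 components, 15 neighbours and Leiden resolution 1.0. Clusters were named from marker lists; the naming rule (at least 4 raised markers, or 3 with 50% of the list) was chosen with the clusters in view. The 12 classes have at least 50 nuclei in each library. The members, gene lists and alternatives were chosen with earlier results of these data known.

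Counts were summed per class and library. edgeR 4.0.16 (filterByExpr, TMM, quasi-likelihood test with legacy option) was fitted to all genes of a class with the 4 libraries; only the PS19 pair gives a residual degree of freedom. p-values were adjusted by Benjamini-Hochberg over all genes of the class at 0.05. Levels are CPM scaled by TMM, except those of the human transgenes and those within single clusters, which are not TMM-scaled. An SE is the fold change over the square root of F. DESeq2 1.42.0, other scalings, filters and clusterings, thinning to 1000 UMIs and Y-linked nuclei alone were alternatives. Intervals are exact (95%), and they and the limit of 3 counts for a zero cover counting error only. The edgeR script was tested on simulated data.

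Members named are the called pairs, 7 isoform pairs, the member with the most UMIs of each complex, the X-linked Ndufa1, Ndufb11 and Cox7b (Cox7b2, listed with them, lies on chromosome 5), up to 2 called pairs of each other list, and the 5 genes most like the sum. Others, such as members high per kilobase or the features at the Atp5o locus, were singled out after their values were seen. Annotation was GENCODE M21, matched by versioned identifier for all 92 members.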

Additional observations from a re-analysis of the deposited data

Results flagged for a closer look

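In 15 cases the single library lay outside the PS19 pair and classes moved in opposite directions for the summed members without the wide Atp5o; the differences between classes were not tested. For PS19 against WT the log2 difference was 0.057 in CA1 neurons, where both PS19 libraries were above WT. It was -0.097 in inhibitory neurons, -0.11 in Cajal-Retzius neurons, -0.057 in oligodendrocytes, -0.019 in oligodendrocyte precursors, -0.13 in microglia and -0.15 in mural cells, where both were below. For TG_PS19 against PS19 it was 0.10 in endothelial cells, 0.056 in mural cells and 0.098 in fibroblasts. It was -0.13 in granule neurons, -0.091 in CA1 neurons, -0.14 in other excitatory neurons, -0.048 in oligodendrocyte precursors and -0.056 in microglia.

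A cluster that no marker list named held 656 nuclei in TG_PS19, 108 in WT and 10 and 4 in PS19, and it entered no comparison. Its leading genes were Ttr, Dynlt1a, Cst3, Rplp1, Fth1, Rpl41, Atp6v0c, Tpt1, Fau and Ptgds. Its nuclei had a median depth of 0.403 of the library median, and what they are was not tested. Members without the wide Atp5o summed to 4375 CPM there (of the cluster's UMIs) in TG_PS19 (4238 to 4514), above the 2759 in WT (2492 to 3047) and above the 3014 of mural cells, the highest class, in the same library. The 14 PS19 nuclei gave 3523 and 2238. Ribosomal protein genes summed to 8281 in TG_PS19 and 3398 in WT, the mitochondrially encoded subunits to 2496 and 596, and the median was 1007.5 UMIs per nucleus in TG_PS19 and 923 in WT.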

How the results depend on the processing

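Members called in PS19 against WT numbered 1 of 820, where 2.78% of all pairs were called. With a robust prior the count was 2 (2.79% of all pairs), and with adjusted residual degrees of freedom 4 (2.94%). With doublets kept it was 4 of 852 (3.66%), at resolution 2.0 it was 3 of 823 (2.79%) and with DESeq2 0 (0.235%). In TG_PS19 against PS19 the count was 8 of 820, where 4.86% of all pairs were called. It became 16 with library totals (4.96% of all pairs) and 13 of 852 with doublets kept (5.31%). With thinned nuclei it was 2 of 423 (2.57%) and with DESeq2 2 (0.502%). Without the wide Atp5o it was 3 (an alternative chosen after seeing the data, as were those for the summed complexes). Other settings gave 1 (lower, and not Cox6b2, when thinned) and 8 to 10, where 1.17 to 2.83% and 2.01 to 4.95% of all pairs were called. The cause of the differences between settings was not tested, though thinning leaves 423 pairs in place of 820. With all 92 members, the wide Atp5o included, the median log2 difference of the summed level over classes was -0.051 for PS19 against WT and 0.0017 for TG_PS19 against PS19, and -0.063 for the latter with library totals, which shift the median of all genes there by up to -0.18 (astrocytes). Without replicate 1 or 2 it ranged from -0.082 to -0.0084 and from -0.039 to 0.051. Where the difference exceeded the gap within the PS19 pair, signs turned for CA1 neurons (-0.0057 in PS19 against WT and 0.027 in TG_PS19 against PS19, thinned, and 0.0059 in the latter with Y-linked nuclei alone), astrocytes (-0.036, TG_PS19, library totals) and fibroblasts (-0.10, TG_PS19, Y-linked nuclei). Differences within that gap turned sign in 11 of 81 class and setting values for PS19 against WT and in 22 of 80 for TG_PS19 against PS19. Leaving out a PS19 library leaves no residual degree of freedom, so fold changes only were refitted; all 9 called pairs kept their direction. No paired analysis was possible because only the PS19 group has 2 libraries and WT and TG_PS19 have 1 each.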
